A study of Rattus norvegicus with 4 samples.

Results

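Cytosolic ribosomal protein genes were followed in rat oxyntic mucosa, where the stomach makes its acid, after octreotide LAR or its vehicle. They were taken as every probe set of the Affymetrix RAE230A chip whose annotated symbol names 1 gene of the Rps and Rpl series, Rplp0, Rplp1, Rplp2 or Rpsa, with the S6 kinases (8 probe sets) and pseudogene symbols left out. This gave 50 of 15866 probe sets, for 44 of the 10411 genes named singly on the chip, of which 30 encode large and 14 small subunit proteins or their paralogs. A further 34 ribosomal protein probe sets name several genes, mostly near copies and pseudogenes of 1 protein, and were used only for comparison. The animals were female Sprague-Dawley rats, labelled as 8 weeks old, whose mucosa was scraped off and frozen 21 days into the study, after a night without food in both groups. The vehicle group received the LAR vehicle and is a single chip with RNA pooled from 8 animals. The octreotide LAR group is 3 chips, pools 1 to 3, each with RNA pooled from 2 animals; the labels give the dose, 5 mg per animal, only in the wording on the vehicle volume. For the vehicle chip the source name reads octreotide LAR while its title gives vehicle, and groups follow the titles. The treatment text is the same for all 4 samples and describes only animals given vehicle, so the grouping rests on the titles and on the description of the pools. No animals were measured singly, so p-values rest on the spread between pools.

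The cytosolic ribosome is built of ribosomal RNA and a fixed set of proteins, which cells therefore make in matched amounts. Their messenger RNAs are among the most abundant of any cell and mostly begin with a short stretch of pyrimidines, the TOP sequence, through which the kinase mTOR controls their translation, so that ribosomal protein output can change with little change in messenger RNA. Octreotide is a stable analogue of somatostatin, a peptide that restrains gastric hormone and acid secretion; LAR stands for its long-acting formulation.

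A RefSeq promoter entry (GRCr8) was found for 37 of the 44 genes, covering 250 bases before to 50 after the annotated start. The stretch from 18 bases before the start to the base 12 into the transcript is shown for 8 of them. A TOP sequence would lie at the start. Capitals mark the longest run of C and T that touches the 10 bases on either side of the start. Rpl4, Rpl13a, Rpl35 and Rplp0 of the large subunit and Rps15 and Rps24 of the small subunit have runs of at least 8 bases; the large subunit gene Rpl11 and the paralog Rps27l have short ones.
Rpl4 (chr8:73566459-73566488, plus strand): tgataagTTCTTCCTTTTCCTgtgggagca
Rpl13a (chr1:104748902-104748931, minus strand): agaCCTCTTCCTTTCCTaggcggctgccga
Rpl35 (chr3:43165910-43165939, minus strand): ccccgCCCCTTCCTCTTTCTCTCgaaccgg
Rplp0 (chr12:46718379-46718408, minus strand): ggtgaccgcaccgcaCTTCTCTCgccaggc
Rps15 (chr7:10068104-10068133, minus strand): agccgctgacaccgCTTCCTTTTCCCagca
Rps24 (chr16:96499-96528, plus strand): cagtgagcggTCCTCTTTTCCTCCTTTaca
Rpl11 (chr5:153560791-153560820, minus strand): ccaggggaCTTgaagcttgtttggtgctgg
Rps27l (chr8:76443640-76443669, plus strand): atagtttaTTCatttgtcattatttgtggt
A run of at least 8 pyrimidines lay there in 23 of the 37 genes, 62.2%. The share was 13.2% of all 27457 promoters in the table and 12.2% of the 8610 whose genes are on the chip. The run was counted on the gene's own strand only. Of the 23 runs, 8 end before the annotated start, as in Rpl13a, and 15 reach into or lie within the transcript. Those of Rpl3l and Rps28 begin inside it, at bases 10 and 5. The first base of the transcript, a pyrimidine in a TOP messenger RNA, was one in 20 of the 37 genes (54.1%) and in 39.6% of all promoters. As a description, the genes with such a run had a median log2 difference between octreotide LAR and vehicle of 0.08, and the 14 without it had one of 0.14, each gene read by its brightest probe set.

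Signals of the ribosomal protein probe sets fell into 2 ranges. A mean signal over all 4 chips of at least 4000 was found for 39 of the 50, which placed them in the top 3% of all probe sets, and 30 of them in the top 1%. The level of 4000 was set after the signals were seen. The lowest of these was Rpl14, a surface protein of the large subunit, at 4849. Below them was a gap down to the dimmer of the other 11, which had means between 12.0 and 1491. The dim probe sets belong to paralogs (Rpl3l, Rpl7l1, Rps27l, Rps4y2), to Rpl30 and Rpl39, or to second probe sets of Rpsa, Rpl7, Rps24 and Rpl14. A probe set's signal also depends on how well its probes bind, so the order of signals is no order of messenger RNA amounts. Together the 50 probe sets took 4.51% of the summed signal on the vehicle chip, and 5.01%, 4.85% and 4.77% on pools 1, 2 and 3. The vehicle chip had the lowest share, and pool 1 the highest. The filter on dim signals left 47 of the 50 for testing, all 17 small subunit and 30 of the 33 large subunit probe sets.

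**Figure D1:**
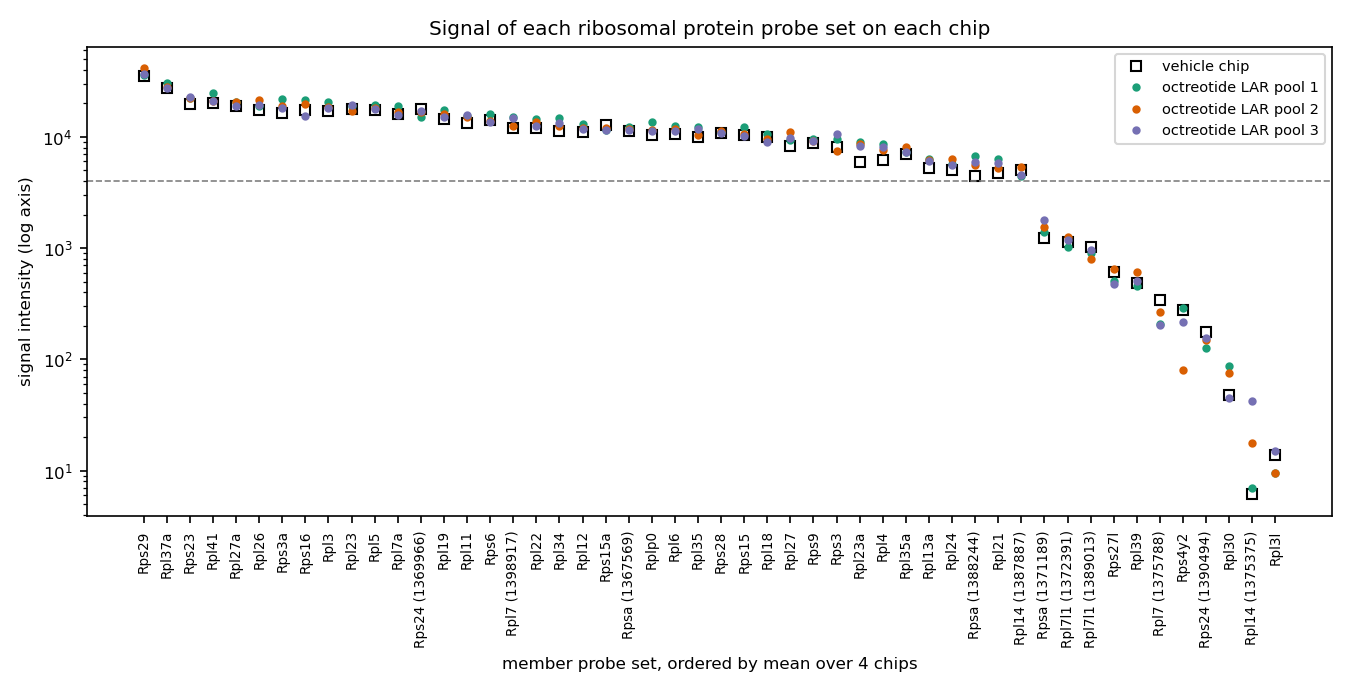
Signal intensity of the 50 ribosomal protein probe sets on the vehicle chip (squares) and the 3 octreotide LAR pools (dots), on a log axis, ordered by the mean over 4 chips. The dashed line is a signal of 4000, above which 39 probe sets lie; for most of these the square sits at or under the dots.

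All 4 chips had nearly the same trimmed mean signal, between 496.8 and 497.2, and median signals between 223.7 and 233.4. They shared 1 chip lot, 1 protocol and 1 station. Each ran on its own module, so module and chip cannot be told apart. Parietal cell markers (5 genes on the chip) summed to 78299 on the vehicle chip and 69834 to 82618 on the pools. Chief cell markers (6 genes) summed to 84182 and 76139 to 85316. Such sums follow the brightest genes. A lower mean was found for 4 of the 5 parietal markers and 5 of the 6 chief markers. On every pool, 2 parietal markers and 1 chief marker lay below the vehicle chip, and 0 and 1 above it. Of all probe sets, 24% lay below on every pool and 24.4% above, and 49.1% had a higher mean. The median marker level was 8521 for parietal and 3114 for chief cells, and 4 of the 6 chief markers passed the filter on dim signals.

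Treated and vehicle mucosa were compared to see whether ribosomal protein messenger RNAs differed at 21 days. No ribosomal protein probe set passed the limma test, 0 of 47 at an adjusted p under 0.05, where 0.105% of all 9520 tested probe sets were called (0.0945% higher and 0.0105% lower). At an unadjusted p under 0.05 there were 3 of the 47 higher (Rpl23a, Rpl4 and 1 probe set of Rpsa) and 0 lower, beside 2.86% higher and 1.71% lower of all tested. The differences were small: 42 of the 50 lay within 0.3 of 0 on the log2 scale, where values are log2(signal + 16) and folds understate the change of dim genes. For each of the 39 bright probe sets, the 95% interval of the difference lay inside 1 in both directions, between -0.45 and 0.85 at its widest, so a change of 1 log2 unit in any of them lies outside its interval. In bulk mucosa, fewer cells of a type and less RNA per cell cannot be told apart.

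**Figure D2:**
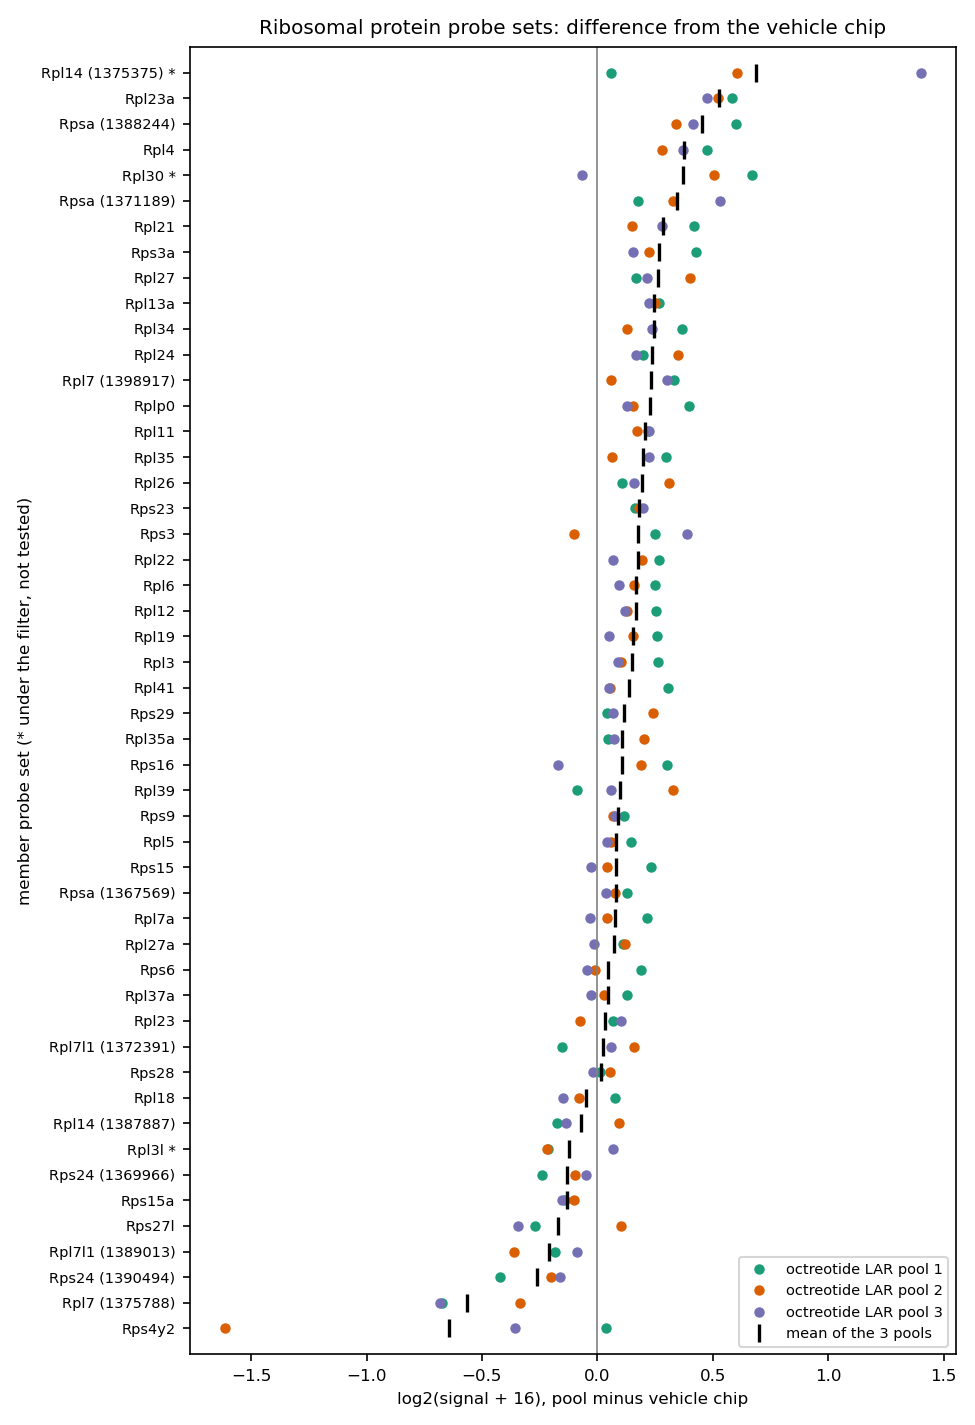
Difference in log2(signal + 16) between each octreotide LAR pool (coloured dots) and the vehicle chip for the 50 probe sets, ordered by the mean of the 3 pools (black bars); an asterisk marks the 3 probe sets under the filter. Of the 50, 28 have all dots to the right of 0 and 5 have all dots to the left.

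Most differences nevertheless pointed the same way. All 3 pools lay above the vehicle chip for 28 of the 50 probe sets, against 24.4% of all 15866, and below it for 5, against 24%. Among the 39 bright probe sets these counts were 26 and 2. For the 356 probe sets of other genes with a mean signal of at least 4000, the shares were 26.1% above and 23.9% below. Most of these are dimmer than the ribosomal ones, of which 27 had a mean of at least 10000. At that level the 27 had 63% above on all pools, 7.41% below and a median log2 difference of 0.14. The 89 other probe sets there had 39.3%, 13.5% and 0.06. Between 4000 and 10000, the 12 ribosomal probe sets had 75% above, 0% below and a median of 0.24. The 267 other probe sets in that range had 21.7%, 27.3% and -0.02. The median log2 difference over the 50 was 0.13, a fold of 1.09, and over the 39 bright ones it was 0.15; it was 0.00 over all tested probe sets and -0.01 over the 356 bright probe sets of other genes. The 34 ribosomal protein probe sets that name several genes, 31 of them bright, had a median of 0.17, with 24 above the vehicle chip on all pools and 1 below it. These sets share the same vehicle chip, so their agreement is no separate measurement.

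**Figure D3:**
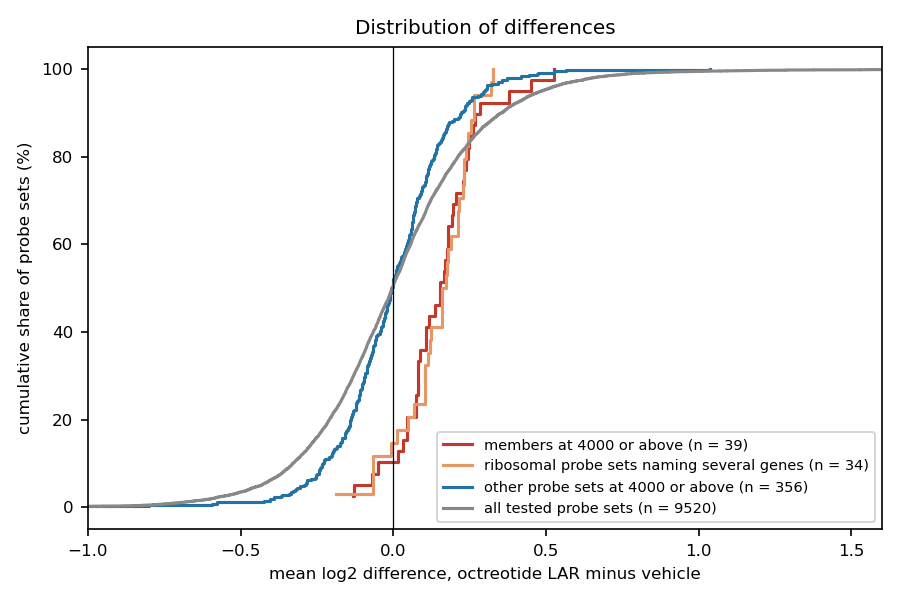
Cumulative share of probe sets (vertical axis, percent) by mean log2 difference between octreotide LAR and vehicle (horizontal axis) for the 39 bright ribosomal protein probe sets, the 34 that name several genes, 356 other bright probe sets and all 9520 tested. The ribosomal curves lie to the right of the others near the middle, with medians of 0.15 and 0.17 against -0.01 and 0.00.

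As deposited, the shift was of the size of the spread between pools. The median difference of the 39 bright probe sets was 0.22, 0.13 and 0.09 on pools 1, 2 and 3. Pool 3 thus stood 0.09 from the vehicle chip and 0.13 from pool 1. Permuting 1 chip against 3 cannot give an exact p under 0.25 (one-sided), and no p was computed for the shift of the set. Part of it depended on the scaling: the median of the 50 went from 0.13 to 0.09 with quantile or cyclic loess normalization, and the count above the vehicle chip on all pools from 28 to 23 and 26. For the 39 bright ones the median went from 0.15 to 0.09 and 0.12, and the count from 26 to 21 and 24. The pools also lay closer together there. With quantile normalization the medians of the 39 were 0.11, 0.07 and 0.07 on pools 1, 2 and 3. With loess normalization they were 0.15, 0.11 and 0.10. Quantile and loess normalization put 24.2% and 24.4% of all probe sets above the vehicle chip on all pools. For the 356 other bright probe sets that share went from 26.1% to 20.5% and 19.4%, and the median from -0.01 to -0.02 and -0.03. At 10000 or above, the median of the 27 ribosomal probe sets went from 0.14 to 0.08 and 0.09. That of the 89 others went from 0.06 to -0.02 and 0.02. The share of the 50 with a higher mean was 80% as deposited, 68% with quantile and 74% with loess normalization, and 49.1% of all probe sets as deposited.

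Large subunit genes had higher values more often than small subunit genes. Of the 33 large subunit probe sets, 21 lay above the vehicle chip on all pools and 2 below it, with a median log2 difference of 0.17. The median of the 17 small subunit probe sets was 0.08, with 7 above and 3 below. Of all probe sets, 24.4% lay above on all pools and 24% below, and of the 89 other probe sets at 10000 or above, 39.3% and 13.5%. Among the bright probe sets, 20 of 26 of the large subunit lay above and 0 below. For the small subunit 6 of 13 lay above and 2 below. The difference between the subunits was not tested, and the median of each fell with quantile normalization, to 0.09 and 0.02. Without pool 1 the small subunit median was 0.02.

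Rpl23a, which sits at the mouth of the tunnel through which the new protein leaves and binds the signal recognition particle, had the largest increase in value of the tested ribosomal probe sets. The vehicle chip gave 5966 against 8962, 8576 and 8295 on pools 1, 2 and 3. Every pool was above the vehicle chip, and the pools lay close to each other. The log2 difference was 0.53 (95% interval 0.20 to 0.85; limma adjusted p = 0.57, and from 0.14 to 0.9997 over the alternatives). Rpl4, whose long loop lines the same tunnel, had 6234 on the vehicle chip against 8681, 7584 and 8079. Again no pool reached down to the vehicle value, and the log2 difference was 0.38 (95% interval 0.04 to 0.71; limma adjusted p = 0.9998). Other proteins around the tunnel exit had smaller log2 differences. Rpl35 had 10001 against 12298, 10464 and 11684, a log2 difference of 0.20. Rpl26 had 17379 against 18724, 21561 and 19392, a difference of 0.19. In neither did the pools overlap the vehicle value. Rpl39, a tiny protein deep in the tunnel, was read by a dim probe set with 483.8 against 454.6, 610.5 and 504.4, so that the groups overlapped.

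Rplp0, the base of the acidic stalk that recruits elongation factors, measured 10319 in vehicle mucosa and 13586, 11498 and 11294 on the pools, a log2 difference of 0.23. Rpl12, which anchors that stalk, had 10926 against 13019, 11957 and 11857, a difference of 0.17. In both genes pool 1 was highest and pools 2 and 3 lay together. Rpl5 and Rpl11 carry the 5S ribosomal RNA and can bind the p53 regulator Mdm2 when assembly fails. Rpl5 had 17419 against 19248, 18152 and 17937, a log2 difference of 0.08. Rpl11 had 13313 against 15485, 14996 and 15573, a difference of 0.21. All pools were above the vehicle chip for both, and neither passed.

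Rpl3, close to the peptidyl transferase centre, had 17060 on the vehicle chip and 20452, 18325 and 18153 on the pools. Rpl13a, a large subunit protein with a role in translational silencing outside the ribosome, had 5200 against 6260, 6177 and 6080, the tightest set of pools among the larger differences (mean 6172 ± 90.4, SD, n = 3). Its log2 difference was 0.25 (95% interval -0.08 to 0.57). Rpl21 had 4743 against 6347, 5263 and 5762, a difference of 0.28. These 3 genes again had every pool above the vehicle chip. Rpl41, a peptide of little more than a single helix, had 20146 against 24902, 20944 and 20845, with pool 1 apart from the other pools. Rpl37a, with the second highest signal of all members, had 27692 against 30312, 28270 and 27171; the groups overlapped, and its difference of 0.04 turned to -0.062 with quantile normalization and to -0.0058 with loess normalization.

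In the small subunit, Rps3a, a protein near the exit of the messenger RNA, had the largest increase in value of the genes read by 1 probe set. The vehicle chip gave 16353 against 22010, 19079 and 18193 on the pools, a log2 difference of 0.27 (95% interval -0.07 to 0.61). Rps23, which reaches into the decoding centre, had 19767 against 22120, 22426 and 22654. Its pools had the smallest coefficient of variation among the bright probe sets, 1.20%, and lay above the vehicle chip by 0.18 on the log2 scale. Rps29, a zinc-binding protein of the subunit head, gave the highest signal of all members, 34881 against 35874, 41233 and 36582.

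Rps6, the protein whose phosphorylation by the S6 kinases is the usual readout of mTOR activity, had 14050 on the vehicle chip and 16033, 13949 and 13635 on the pools. The vehicle value lay among the pools, and the log2 difference of 0.05 (95% interval -0.29 to 0.38) became -0.027 without pool 1. Rps3, which lines the messenger RNA entry, had 8024 against 9531, 7475 and 10503, the widest spread of the bright probe sets, with a coefficient of variation of 16.9%. Messenger RNA signals carry no information on the phosphorylation of Rps6.

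The 2 bright probe sets below the vehicle chip on all pools were both of the small subunit. Rps15a had 12721 on the vehicle chip and 11535, 11866 and 11445 on the pools. Its pools were tight and the log2 difference was -0.13 (95% interval -0.45 to 0.18). Rps24, a gene in which loss of 1 copy can cause Diamond-Blackfan anaemia in people, had 17809 against 15079, 16634 and 17199, also -0.13. Neither passed (limma adjusted p = 0.9998 for both).

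Paralogs of the ribosomal proteins were dim, and 4 of their 5 probe sets had a lower mean after octreotide LAR; none passed. Rpl3l, which replaces Rpl3 in skeletal and heart muscle, had 13.7 on the vehicle chip and 9.6, 9.5 and 15.1 on the pools, a log2 difference of -0.12, and was not tested. Rps27l, a paralog of Rps27 that p53 can induce, had 607.7 against 501.2, 654.1 and 475.4, a difference of -0.17. Rps4y2, of the S4 family, had 279.6 against 287.6, 80.6 and 214.6, a difference of -0.64 with pool 2 far below the other pools. In each of these 3 genes the vehicle value lay among the pools. Rpl7l1, a paralog of Rpl7, was read by a pair of probe sets: 1 had 1027 against 903.5, 795.8 and 964.5, a difference of -0.21, and the other had 1128 against 1013, 1263 and 1176, a difference of 0.02. Their mean was -0.094.

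Of the 44 genes, 5 were read by more than 1 probe set, and these did not always point the same way. Rpsa, the laminin receptor protein of the small subunit, had 3 probe sets, all above the vehicle chip on every pool. The brightest had 11218 against 12253, 11816 and 11519, a log2 difference of 0.08. The second (suffix _s_at) had 4409 against 6701, 5582 and 5876, a difference of 0.45. The third (suffix _x_at) had 1232 against 1395, 1550 and 1786, a difference of 0.34. Those suffixes mark probe sets whose probes can bind more than 1 transcript, so the difference of 0.08 is the one from the probe set without such a suffix. Rpl7 had 12008 against 15141, 12503 and 14809 by its bright probe set, 0.23 higher, and 338.6 against 206.3, 265 and 205.1 by its dim one, a log2 difference of -0.56; each put all pools on 1 side of the vehicle chip. Rps24 was lower by both, its dim probe set having 175 against 126.5, 150 and 154.9. Rpl14 had 5019 against 4449, 5356 and 4573 by its bright probe set, and its dim one, at 6.1 against 7, 17.6 and 42.4, was not tested.

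**Figure D4:**
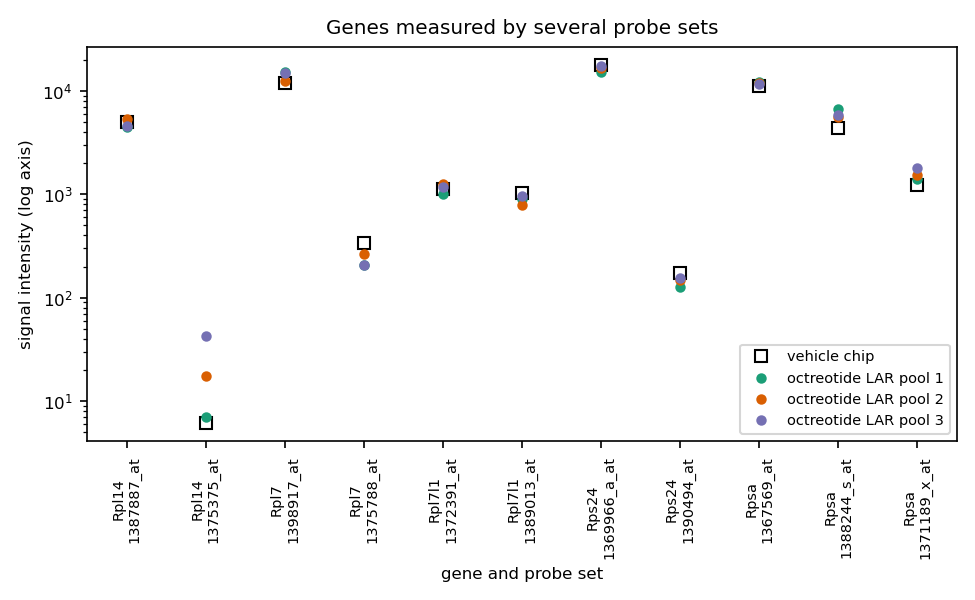
Signal intensity (log axis) of the 11 probe sets of the 5 genes with more than 1 probe set, on the vehicle chip (squares) and the 3 octreotide LAR pools (dots). Rpsa lies above the vehicle chip in all its probe sets, while those of Rpl7 lie on opposite sides.

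Between the treated pools, which does not involve the vehicle chip, the bright ribosomal protein probe sets differed little. Their median deviation from the mean of the pools was 0.08 on pool 1, -0.02 on pool 2 and -0.04 on pool 3. The 89 other probe sets at 10000 or above had nearly the same values, 0.07, -0.02 and -0.05, and pool 1 was the highest for 58.4% of them. Pool 1 was the highest pool for 25 of the 39, or 64.1%. It was also the highest for 53.1% of the 356 other bright probe sets and for 34% of all probe sets. The median SD of the log2 values over the pools was 0.10 for the 39, 0.12 for the other bright probe sets and 0.18 for all tested.

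Other genes of protein synthesis were taken from lists and read by their brightest probe set; none passed the limma test in either direction. Among 9 elongation factor genes, 8 had a higher mean, with a median log2 difference of 0.16. On every pool, 5 lay above the vehicle chip and 1 below it. Of all probe sets, 49.1% had a higher mean, 24.4% lay above on every pool and 24% below. Eef1a1, which brings aminoacyl-tRNA to the ribosome and has a TOP messenger RNA, had 12188 on the vehicle chip and 14244, 15190 and 14036 on the pools. Eef1g, a subunit of its exchange factor, had 6450 against 8647, 6984 and 7622. Of 35 initiation factor genes 25 had a higher mean and the median was 0.04. Of these genes, 13 lay above the vehicle chip on every pool and 4 below it. Eif3f, a subunit of the initiation factor eIF3, had 2933 against 3772, 3334 and 4125. Eif3h, another subunit of eIF3, had 4399 against 5405, 5015 and 5718. A mixed list of 6 genes, ribosome partners with a few other translation-related genes, had a median of 0.03. Among these, Naca, which binds new chains at the tunnel exit, had 5378 against 6552, 5534 and 6131. Eif4ebp1, the mTOR target that restrains initiation, had 1279 against 1282, 1141 and 1074.

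Among 49 ribosome biogenesis genes, 33 had a higher mean, with a median log2 difference of 0.12. On every pool, 19 lay above the vehicle chip and 9 below it. Of all probe sets, 49.1% had a higher mean, 24.4% lay above on every pool and 24% below. Bysl, needed to mature the small subunit, had 267.5 on the vehicle chip and 539.5, 414.4 and 384.6 on the pools (limma adjusted p = 0.99). Nop56, a core protein of the small nucleolar particles that methylate ribosomal RNA, had 444.9 against 658.7, 758.8 and 558.1. These 2, of 45 tested, were the genes of the list with an unadjusted limma p under 0.05. At that level 2.86% of all tested probe sets were higher. Of 71 mitochondrial ribosomal protein genes, which build the separate ribosome of mitochondria, 48 had a lower mean, with a median of -0.09. On every pool, 19 lay below the vehicle chip and 9 above it, beside 24% and 24.4% of all probe sets. The cytosolic and mitochondrial sets thus had medians of opposite sign. The difference was not tested. These sets also differed in signal, with a median level of 11056 for the 50 cytosolic probe sets and 868 for the mitochondrial genes. The 11 cytosolic probe sets under 4000 had a median log2 difference of -0.12, with 2 above the vehicle chip on every pool and 3 below it. Mrpl4, of the large mitochondrial subunit, had 929.1 against 1296, 1183 and 1168, and Mrps30 had 616.1 against 378.1, 505.1 and 484.5. The 31 genes of mTOR and S6 kinase signalling had a median of 0.04, with 13 above the vehicle chip on every pool and 4 below it. Mtor itself had 376 against 472.5, 522.1 and 519.5. Akt1s1, an inhibitor within the mTOR complex, had 674.7 against 855.4, 884.7 and 800.4. The 19 aminoacyl-tRNA synthetase genes had a median of 0.06, with 5 above on every pool and 4 below. Aars1, the alanine enzyme, had 2383 against 1936, 1917 and 1619. Yars1, the tyrosine enzyme, had 992.6 against 741.1, 776.7 and 820.8.

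**Figure D5:**
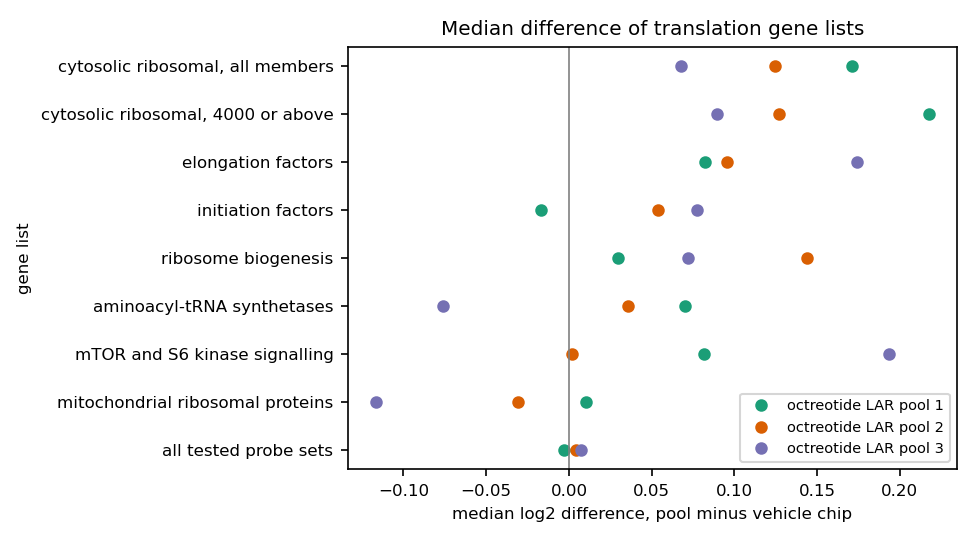
Median log2 difference from the vehicle chip (horizontal axis) of each gene list on each octreotide LAR pool (dots). The cytosolic ribosomal protein medians are above 0 on every pool, those of the mitochondrial ribosomal proteins are 0.01, -0.03 and -0.12, and those of all tested probe sets are near 0.

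Some of the marker lists of other cells lay wholly on 1 side of the vehicle chip on every pool, and others did not. All 11 squamous epithelial markers were above the vehicle chip on every pool, and 6 passed the limma test. Their summed signal was 1892 on the vehicle chip and 9586, 7064 and 6164 on pools 1, 2 and 3. Parietal, chief, smooth muscle and dividing cell markers also summed highest on pool 1 and lowest on pool 3. Of the 4 smooth muscle markers, 2 had a higher and 2 a lower mean, with 0 above and 0 below on every pool. The 7 markers of dividing cells summed to 4192 against 4965, 4615 and 3566. Of the 7, 5 had a higher mean and 2 a lower one, and 3 lay above the vehicle chip on every pool. Mki67, the usual proliferation marker and the 1 with the smallest p, had 189.1 against 592.7, 352 and 405.2. It did not pass (limma adjusted p = 0.44). The 4 surface mucous markers on the chip were higher on all pools, summing to 112236 against 127949, 131985 and 123031. The 4 markers of ECL cells, the histamine-storing endocrine cells, were lower on all pools, summing to 14788 against 7046, 7189 and 7491. Of these 4, 1 passed the limma test. T cell markers (6 genes) were dim, at 470.6 against 429.3, 439.8 and 448.2. No marker signal was at 0. The part of these cells in the ribosomal protein values was not tested.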

How the data were processed

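The RNA was isolated with RNeasy Midi columns and made into biotinylated cRNA, per the labels' protocols. In the deposited value table each probe set has a linear intensity (its signal) on each chip; its algorithm and scaling: not given in the sources used here. Chip lot, protocol, station and module (other fields) were read per the file headers of the deposited experiment files.

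Signals were taken as log2(signal + 16). Probe sets whose mean lay under the 40th percentile, a signal of about 144.7, were left out, and the 9520 others entered limma (version 3.58.1, R 4.3.3; lmFit, then eBayes with trend), two-sided, with Benjamini-Hochberg adjustment over all of them and a threshold of 0.05. The code was tested on simulated data with known changes, a check of the code only. The lone vehicle chip is assumed to vary like the treated chips (2 residual and 11.5 prior degrees of freedom). With 4 chips, their number sets the precision. Treated values are mean ± SD over 3 chips. Symbols come from the platform annotation (12783 probe sets name 1 gene).

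The genes and lists were chosen with earlier results of these data known. Named are the tested ribosomal probe sets on 1 side of the vehicle chip with the 6 largest and 6 smallest differences. So are the 3 brightest and 3 dimmest, the paralogs, any called probe set and genes whose probe sets differ by over 1 (none). A chosen set of well-known genes was added (such as Rplp0, Rpsa, Rps6, Rpl5, Rpl11, Rpl13a, Rpl39, Rpl41 and Rps3). In each list other than the cell markers, the 2 genes with the smallest p are named too. Outside this rule, Rpl3, Rpl12, Rpl26, Rpl35, the bright probe sets of Rpl7 and Rpl14, the window of Rps15, and Mki67 were chosen after their values were seen. Alternatives changed the pseudocount, filter, scaling, trend, treatment of several probe sets and set of pools.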

Additional observations from a re-analysis of the deposited data

How the results depend on the processing

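No ribosomal protein probe set was called under any alternative run, in either direction. Of 371 values of the 29 named probe sets under an alternative, 365 kept their direction. A test was made for 333 of the 371, and 0 of those passed the threshold. Rpl37a turned to -0.062 with quantile and -0.0058 with cyclic loess normalization, and the brighter Rpl7l1 probe set to -0.094 as the mean over the gene's probe sets. Leaving out 1 pool gave -0.027 to 0.090 for Rps6, -0.014 to 0.19 for Rpl39 and -0.046 to 0.11 for that Rpl7l1 probe set. The median of the 50 stayed between 0.12 and 0.16 when 1 pool was left out; the large subunit median was 0.092 with quantile normalization. With probe sets that name several genes, or without the 4 paralogs, alternatives chosen after seeing the data, the median was 0.16 and 0.15. Calls over all probe sets by limma numbered 0 without the filter (776 of 15866 at an unadjusted p under 0.05, 3 of them ribosomal), 5 with quantile, 75th percentile or loess scaling, 1 without the trend, 6 over gene means, and 53, 55 and 31 without pools 1, 2 and 3, beside 10 in the fit reported. No paired analysis was possible because the groups share only 1 replicate number and the vehicle group is 1 chip. The lone chip limits what can be said of a shared shift.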
